A study of Mus musculus with 6 samples.

Results

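The mitosis genes are a set of 41 genes whose products drive or mark cell division: the G2/M cyclins and kinases, mitotic kinesins, centromere and kinetochore proteins, spindle checkpoint proteins and cytokinesis factors. They were picked by symbol for their known roles, with earlier results of these data known, and all 41 were found among the 24521 genes of the deposited table of normalised values. Their RNA was measured in entire lung lobes from E18.5 mouse embryos, which are close to birth. Of the 6 libraries, 3 came from Mll3FDC/FDC lungs, called Mll3 KO by the submitters and knockout here, and 3 from wild-type lungs. Lung lobes were dissected before aeration, frozen whole and sequenced as polyadenylated RNA, so every value is an average over all cell types of a lobe. No label names a strain, a Cre driver or a pooling of embryos, and each library is called a lung here. MLL3, also named KMT2C, is a histone methyltransferase that marks enhancers with H3K4 methylation. The comparison asks how the lung transcriptome differs between genotypes.

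In a dividing cell, CDK1 bound to a B-type cyclin starts mitosis, and the Aurora and Polo kinases then build the spindle. Kinesins separate the poles and move chromosomes, kinetochores hold chromosomes to microtubules, and the spindle checkpoint keeps the anaphase-promoting complex (APC/C) inactive until every kinetochore is attached. RNAs of these genes accumulate in G2 and M phase and are low in resting cells, so in a tissue their summed level is commonly read as a measure of proliferation. Late in gestation the lung still holds dividing epithelial, endothelial and mesenchymal cells.

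Promoters of G2/M genes are known for the cell cycle genes homology region (CHR), bound by MuvB complexes together with B-MYB and FOXM1, and for CCAAT boxes bound by NF-Y. RefSeq promoters (build GRCm38.p6) were matched for 34 of the 41 genes. Ccna2, Tpx2, Kif20a, Cdc25c, Aurkb, Incenp and Foxm1 were not matched. The 250 bases before the RefSeq start were searched on both strands for the CHR, spelled TTTGAA or TTCGAA, and for CCAAT. A gene was counted if any of its RefSeq promoters matched. A CHR was found for 13 of the 34 genes (38.2%). The share was 15.01% of 12133 genes tested here and 19.6% of 27025 genes in the whole promoter table. CCAAT was found for 25 genes (73.5%), against 39.6% of the tested and 37.5% of all genes. At least 2 copies were found for 18 genes (52.9%), against 14.2% and 11.5%. Both motifs stood in the same promoter for 11 genes (32.4%), against 5.67% and 7.00%. A match describes the letters and is not a bound site.

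The promoters of 5 genes with both motifs are shown because they cover an entry kinase, an APC/C activator, a spindle motor and both chromosome proteins of the set. Each is the last 150 bases before the RefSeq start, 5′ to 3′ on the gene's strand, with capitals marking CHR and CCAAT matches in either orientation (ATTGG and TTCAAA are the reverse complements of CCAAT and TTTGAA). No 2 matches overlap within these windows. They lie at chr10:69352913-69353062 on the minus strand (Cdk1), chr4:118437344-118437493 on the minus strand (Cdc20), chr19:37376232-37376381 on the plus strand (Kif11), chr7:135716380-135716529 on the minus strand (Mki67) and chr11:99024190-99024339 on the minus strand (Top2a). The gene models of the count table begin inside the last bases of the Cdk1 and Cdc20 windows.
Cdk1: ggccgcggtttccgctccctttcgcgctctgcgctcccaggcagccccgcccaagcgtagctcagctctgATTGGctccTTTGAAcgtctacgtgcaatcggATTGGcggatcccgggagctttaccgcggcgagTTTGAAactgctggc
Cdc20: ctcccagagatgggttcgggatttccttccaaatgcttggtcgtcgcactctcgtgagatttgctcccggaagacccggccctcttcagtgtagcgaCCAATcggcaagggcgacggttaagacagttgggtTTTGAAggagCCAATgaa
Kif11: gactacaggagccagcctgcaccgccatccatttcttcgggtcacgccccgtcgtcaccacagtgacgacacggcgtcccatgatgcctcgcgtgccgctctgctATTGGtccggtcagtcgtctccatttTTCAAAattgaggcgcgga
Mki67: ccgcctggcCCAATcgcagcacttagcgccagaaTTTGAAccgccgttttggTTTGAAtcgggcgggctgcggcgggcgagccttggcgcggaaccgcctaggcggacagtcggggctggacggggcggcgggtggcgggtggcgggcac
Top2a: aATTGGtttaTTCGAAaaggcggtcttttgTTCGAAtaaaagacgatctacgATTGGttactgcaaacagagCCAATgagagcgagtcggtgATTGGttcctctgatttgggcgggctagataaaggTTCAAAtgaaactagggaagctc

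Library depth ran from 20158689 to 23305306 reads assigned to genes, and 1 CPM (the usual count scaled to library size, here after TMM factors) stood for 20.4 to 23.9 reads. Every mitosis gene was counted well above that level, with 126 to 9871 reads in each library. Replicates were separate libraries in each genotype, and every pair within a genotype differed by more than counting noise (chi-square over degrees of freedom from 8.49 to 21.1). The labels do not say whether they came from separate litters, so p-values measure only the spread between these libraries. Kmt2c itself, the targeted gene, had 143, 171 and 159 CPM in knockout lungs, against 162, 179 and 162 CPM in wild-type lungs (log2 fold change −0.09 ± 0.08 (SE), edgeR adjusted p = 0.74). A count over the whole gene cannot show a deletion of part of it, so this does not check the labels. Knockout 3 alone held many Xist reads (59951, against 6 to 27 in the other 5 libraries). Y-linked reads (Ddx3y, Eif2s3y, Kdm5d and Uty) numbered 4 in knockout 3, against 7414 to 9300 in the other 5. By these reads knockout 3 was female and the other 5 libraries were male, so sex differed within the knockout group. Sample titles begin with a number of unstated meaning: knockout 1, wild type 1 and wild type 2 carry the lower title number, and knockout 2, knockout 3 and wild type 3 the higher.

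Mitosis genes had a higher mean in knockout than in wild-type lungs in all 41 cases, and 0 of 41 passed the test. Log2 fold changes ran from 0.11 (Bub3) to 0.55 (Ndc80) with a median of 0.37, beside a median of 0.01 over all 19042 genes tested. edgeR's quasi-likelihood test with Benjamini-Hochberg adjustment over all genes gave adjusted p-values between 0.36 and 0.87, whereas it called 0.0630% of all genes higher and 0.305% lower in knockout lungs. An unadjusted p under 0.05 was reached by 8 members (Cdc25c, Cdca3, Bub1, Kif15, Kif23, Ndc80, Incenp and Racgap1), and 4.71% of all genes were higher at that level. DESeq2 also called 0 members, with a lowest adjusted p of 0.12 and 26 members higher at an unadjusted p under 0.05. Of all genes, DESeq2 called 0.326% higher, and 3.40% were higher at an unadjusted p under 0.05. A fold change above 0 was seen in 52.6% of all genes.

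Knockout 1 held most of the difference. The summed level of the 41 genes was 2941, 2011 and 1850 CPM in knockouts 1, 2 and 3, against 1664, 2000 and 1733 CPM in wild types 1, 2 and 3. Knockout 1 stood above every other library, while knockouts 2 and 3 fell within or just beside the range of the wild-type lungs. The means were 2267 ± 589 CPM in knockout and 1799 ± 178 CPM in wild-type lungs (SD, n = 3 each). These sums were 0.301%, 0.204% and 0.183% of all reads in knockouts 1, 2 and 3, against 0.164%, 0.198% and 0.171% in wild types 1, 2 and 3. In whole lungs, more dividing cells and more of these RNAs per dividing cell cannot be told apart.

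Gene by gene, knockout 1 was the highest of the 6 libraries for 41 of 41 members, a position it held for 26.5% of all genes tested. Relative to the wild-type mean, the members' levels in knockout 1 were 1.28 times (Bub3) to 2.04 times (Kif2c), with a median of 1.72. Knockout 2 had ratios from 0.947 to 1.33 with a median of 1.12, and knockout 3 had ratios from 0.843 (Nuf2) to 1.17 (Kif23) with a median of 1.01. Wild type 2, the highest of its genotype for nearly all members, had ratios to the same mean of 1.02 to 1.22 with a median of 1.11. Knockout 2 exceeded wild type 2 for 24 members and knockout 3 did so for 3. Among all genes, 5.29% stood at least 0.5 on the log2 scale above the wild-type mean in knockout 1. The lowest library was wild type 1 for 28 members, wild type 3 for 11 and knockout 3 for 2.

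**Figure D1:**
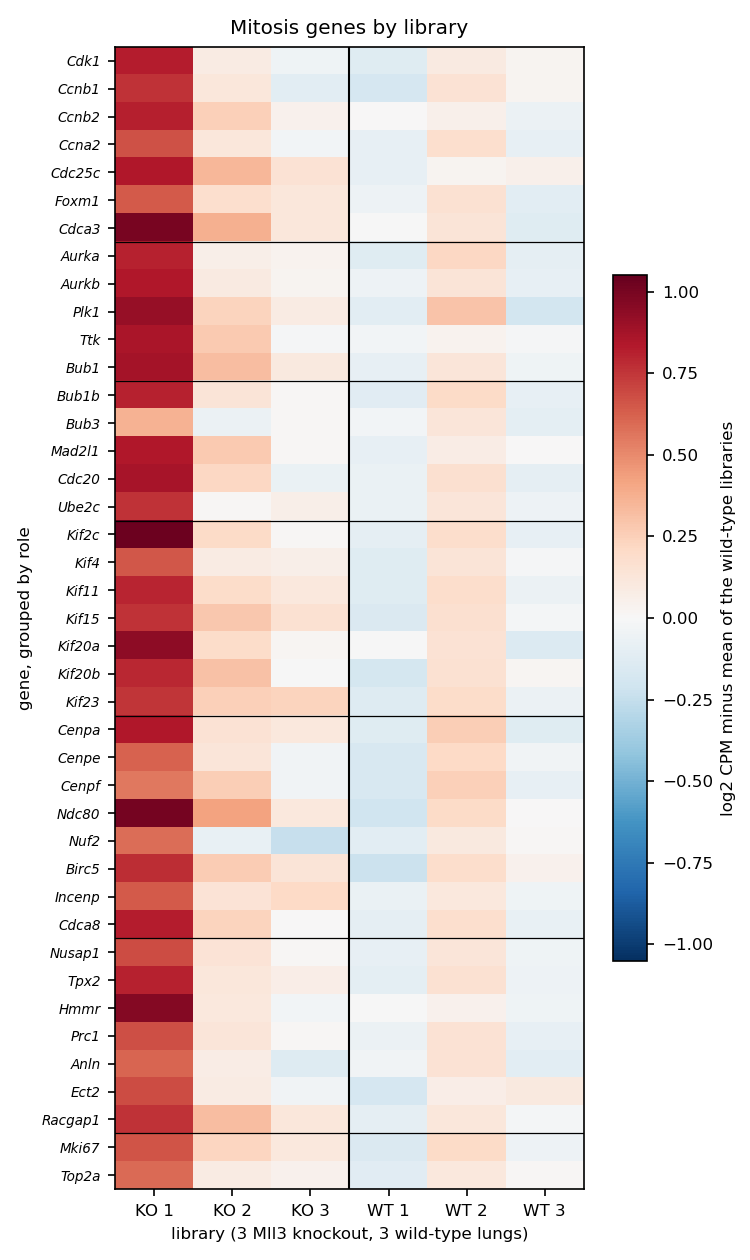
Log2 CPM of each mitosis gene (rows, grouped by role) minus its mean over the wild-type libraries, in each of 3 knockout (KO) and 3 wild-type (WT) lungs (columns). The KO 1 column is red in every row (median 0.79), while KO 2 (0.17) and WT 2 (0.15) are pale red and KO 3 (0.02) is close to white.

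Without knockout 1, the median log2 fold change was 0.10, with 37 of 41 members above 0 and a range from −0.16 (Nuf2) to 0.26 (Ndc80), and 0 members were called by edgeR. Leaving out any 1 of the other 5 libraries gave medians between 0.32 and 0.51, with 41 members above 0 and 0 called each time. Within the lower title number, knockout 1 was higher than the mean of wild types 1 and 2 for 41 members, by a median of 0.77 (0.31 to 1.01). Within the higher title number, the mean of knockouts 2 and 3 was higher than wild type 3 for 37 members, by a median of 0.16 (−0.17 to 0.38). With the title number as a term in the model, the median log2 fold change was 0.47, and edgeR called 4 members higher in knockout lungs, beside 0.746% of all genes called higher and 2.54% called lower. They were Cdca3 (0.67 ± 0.13 (SE), adjusted p = 0.029), Incenp (0.43 ± 0.10, adjusted p = 0.043), Foxm1 (0.42 ± 0.10, adjusted p = 0.046) and Kif23 (0.51 ± 0.11, adjusted p = 0.049).

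The spread was larger among knockout than among wild-type lungs for 41 of 41 members. Knockout 1 was the highest library for all 41, so these counts are not independent. The share of all genes with a larger spread in knockout lungs is not given. Between replicates, chi-square over degrees of freedom was 12.3 to 21.1 for knockout pairs and 8.49 to 9.26 for wild-type pairs. The SD was 16.3% to 40.3% of the mean in knockout lungs (median 28.7%) and 2.53% to 19.3% in wild-type lungs (median 10.2%). Within the knockout lungs, knockout 1 exceeded the mean of the other two by 1.31 to 1.90 times (median 1.58). Within the wild-type lungs, wild type 2 exceeded the mean of the other two by 1.03 to 1.37 times (median 1.17). Across the 41 members, which share the same libraries, the log2 values of these ratios had a Pearson r of −0.09 and a Spearman coefficient of −0.05.

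All knockout lungs lay above all wild-type lungs for 3 members, Cdc25c, Kif23 and Incenp, beside 8.60% of all genes tested. No member had all knockout lungs below all wild-type lungs, beside 8.45% of all genes. Kif23 encodes the kinesin of centralspindlin, the complex that bundles midzone microtubules for cytokinesis. It had 67.3, 47.6 and 47.0 CPM in knockout lungs, against 36.5, 45.7 and 38.4 CPM in wild-type lungs. Knockouts 2 and 3 cleared wild type 2 by a small margin, and the fold change of 0.43 ± 0.15 did not pass (log2, SE, edgeR adjusted p = 0.36). Incenp, the scaffold of the chromosomal passenger complex, had 69.7, 49.3 and 51.6 CPM in knockout lungs, against 42.5, 48.2 and 43.1 CPM in wild-type lungs (0.35 ± 0.13, edgeR adjusted p = 0.37). The gap between its lowest knockout and highest wild-type library was again small. Cdc25c, a phosphatase that activates CDK1, was the least abundant member, with 10.9, 7.73 and 6.72 CPM in knockout lungs, against 5.69, 6.19 and 6.30 CPM in wild-type lungs (0.48 ± 0.18, edgeR adjusted p = 0.37).

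**Figure D2:**
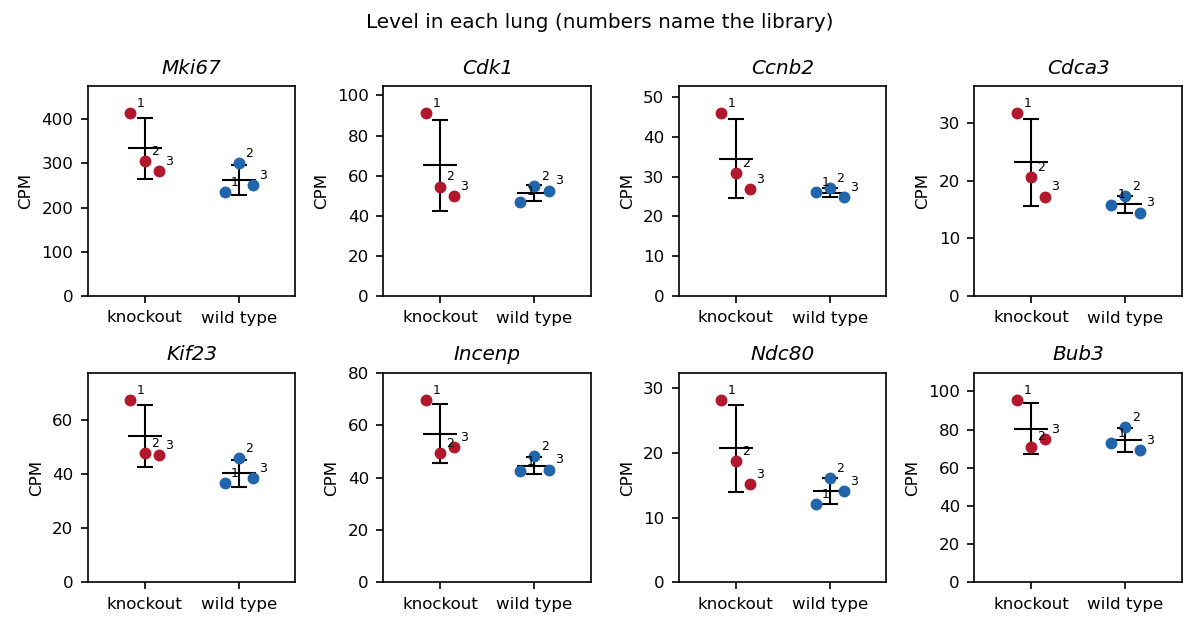
CPM of 8 mitosis genes in each knockout and wild-type lung. Points are libraries labelled by number, and bars give the mean ± SD (n = 3); each axis starts at 0. Knockout 1 is the top point in every panel, and only Kif23 and Incenp have all 3 knockout points above all wild-type points.

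Among the 7 genes of mitotic entry, knockout 1 stood 1.56 (Foxm1) to 2.00 times (Cdca3) above the wild-type mean. Cdk1, the kinase at the centre of entry, had 91.0, 54.5 and 49.7 CPM in knockout lungs, against 47.1, 54.7 and 52.5 CPM in wild-type lungs. Only knockout 1 lay outside the wild-type range (log2 fold change 0.34 ± 0.24 (SE), edgeR adjusted p = 0.69). Ccnb1, its partner cyclin B1, had 21.4, 13.6 and 11.7 CPM in knockout lungs, against 11.1, 13.9 and 12.8 CPM in wild-type lungs. Knockouts 2 and 3 again sat among the wild-type values. The processed pseudogene Ccnb1-ps, with 5.44, 3.33 and 3.78 CPM in knockout and 2.80, 3.75 and 3.57 CPM in wild-type lungs, resembles Ccnb1, so how reads divided between these 2 genes is uncertain. Ccnb2, cyclin B2, had 45.9, 30.9 and 26.8 CPM in knockout lungs, against 26.1, 27.0 and 24.8 CPM in wild-type lungs, a tight wild-type group that knockout 3 overlapped. Ccna2, cyclin A2, which acts from S phase into early mitosis, had 112, 76.4 and 69.0 CPM in knockout lungs, against 66.3, 79.5 and 66.3 CPM in wild-type lungs. Foxm1, the transcription factor that activates many G2/M genes, had 47.5, 34.3 and 33.0 CPM in knockout lungs, against 29.3, 34.1 and 28.2 CPM in wild-type lungs. Its knockout 2 library exceeded wild type 2 only slightly, and the fold change of 0.33 ± 0.14 did not pass (adjusted p = 0.47 in edgeR).

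The mitotic kinases repeated this order. Plk1, the Polo-like kinase, had 28.7, 17.8 and 16.1 CPM in knockout lungs, against 14.0, 18.7 and 13.3 CPM in wild-type lungs, so wild type 2 exceeded knockouts 2 and 3. Aurka, which works at the spindle poles, had 26.7, 15.9 and 15.6 CPM in knockout lungs, against 14.0, 17.7 and 14.2 CPM in wild-type lungs. Aurkb, the kinase of the chromosomal passenger complex, had 34.5, 20.5 and 19.5 CPM in knockout lungs, against 18.6, 21.2 and 18.1 CPM in wild-type lungs. In both Aurora genes wild type 2 came second after knockout 1. The checkpoint kinase gene Ttk, also named Mps1, had 23.6, 15.7 and 12.8 CPM in knockout lungs, against 12.7, 13.3 and 12.9 CPM in wild-type lungs, the narrowest wild-type group of all members relative to its mean. Bub1, which recruits checkpoint proteins to kinetochores, had 48.2, 32.9 and 28.2 CPM in knockout lungs, against 24.7, 28.7 and 25.4 CPM in wild-type lungs. For Ttk and Bub1 knockout 2 also exceeded all wild-type lungs, and their fold changes were 0.42 ± 0.20 and 0.47 ± 0.19 (edgeR adjusted p = 0.51 and 0.43).

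Of the spindle checkpoint and APC/C genes, Bub3 differed least. BUB3, which docks BUB1 and BUBR1 on kinetochores, had 95.5, 71.1 and 74.9 CPM in knockout lungs, against 73.0, 81.4 and 69.2 CPM in wild-type lungs. The ratio of knockout 1 to the wild-type mean, 1.28, was the smallest of the set, and the next smallest was 1.46 (Cenpf). Bub1b, encoding BUBR1, had 76.5, 48.0 and 44.0 CPM in knockout lungs, against 40.3, 50.2 and 41.2 CPM in wild-type lungs. Mad2l1, encoding the checkpoint protein MAD2, had 55.4, 37.3 and 31.1 CPM in knockout lungs, against 29.1, 32.7 and 30.9 CPM in wild-type lungs. Cdc20, the APC/C activator that the checkpoint holds, had 48.6, 31.0 and 25.4 CPM in knockout lungs, against 25.4, 30.0 and 25.1 CPM in wild-type lungs. For Mad2l1 and Cdc20 knockout 2 also lay above all wild-type lungs. Ube2c, the ubiquitin-conjugating enzyme of the APC/C, had 44.6, 26.7 and 27.5 CPM in knockout lungs, against 25.2, 28.8 and 25.4 CPM in wild-type lungs. None of the 5 had an unadjusted p under 0.05.

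The 7 kinesins had knockout 1 ratios from 1.57 (Kif4) to 2.04 (Kif2c). Kif2c, the microtubule depolymerase MCAK that corrects wrong attachments, had 32.0, 17.95 and 15.7 CPM in knockout lungs, against 14.6, 17.7 and 14.7 CPM in wild-type lungs. Knockouts 2 and 3 lay near the wild-type lungs, and its fold change of 0.49 had an SE of 0.28 (edgeR adjusted p = 0.61). Kif11, the motor EG5 that pushes spindle poles apart, had 100.4, 65.7 and 62.1 CPM in knockout lungs, against 52.7, 65.7 and 55.3 CPM in wild-type lungs. Kif15, a motor that can share this work, had 53.6, 38.3 and 35.2 CPM in knockout lungs, against 28.5, 35.5 and 31.1 CPM in wild-type lungs (0.42 ± 0.16, edgeR adjusted p = 0.40). Kif15 thus missed full separation only through knockout 3, which fell slightly below wild type 2. The midzone kinesin Kif20a had 71.2, 42.5 and 37.6 CPM in knockout lungs, against 37.0, 41.3 and 33.5 CPM in wild-type lungs. Kif20b, which acts in the completion of cytokinesis, had 51.3, 36.7 and 29.5 CPM in knockout lungs, against 26.1, 33.2 and 30.0 CPM in wild-type lungs. Kif4, a chromokinesin gene on chromosome X, had 42.8, 28.8 and 28.4 CPM in knockout lungs, against 24.9, 29.9 and 26.9 CPM in wild-type lungs. Knockout 3, the library with many Xist reads, did not stand apart from knockout 2 for this gene.

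The 8 centromere, kinetochore and chromosomal passenger genes held both ends of the range of fold changes apart from Bub3. Ndc80, the microtubule-binding core of the outer kinetochore, had 28.2, 18.8 and 15.2 CPM in knockout lungs, against 12.1, 16.2 and 14.1 CPM in wild-type lungs (0.55 ± 0.23, edgeR adjusted p = 0.45). Its partner in the same complex, Nuf2, had 34.7, 21.9 and 19.5 CPM in knockout lungs, against 21.4, 24.7 and 23.3 CPM in wild-type lungs (0.13 ± 0.21, adjusted p = 0.87 in edgeR). Knockout 3 was the lowest library for Nuf2, and it was above wild types 1 and 3 for Ndc80. The difference between the fold changes of these partners was not tested. Cenpa, the histone H3 variant that marks centromeres, had 69.4, 42.9 and 41.7 CPM in knockout lungs, against 35.3, 46.1 and 35.4 CPM in wild-type lungs. Cenpe, a kinetochore motor, had 80.1, 56.8 and 50.8 CPM in knockout lungs, against 46.4, 60.1 and 50.7 CPM in wild-type lungs. Cenpf, a large kinetochore-associated protein, had 113, 91.5 and 74.6 CPM in knockout lungs, against 68.2, 91.4 and 72.3 CPM in wild-type lungs. For these 3 genes wild type 2 was level with knockout 2 or above it. Birc5, encoding survivin, had 33.8, 23.7 and 21.6 CPM in knockout lungs, against 16.8, 22.3 and 20.3 CPM in wild-type lungs. Cdca8, encoding borealin, the other passenger subunit, had 34.7, 22.99 and 19.6 CPM in knockout lungs, against 18.3, 22.1 and 18.48 CPM in wild-type lungs.

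Among the 7 genes of spindle assembly and cytokinesis, the ratio of knockout 1 to the wild-type mean ran from 1.53 (Anln) to 1.96 (Hmmr). Racgap1, the partner that forms centralspindlin with Kif23, had 72.0, 53.3 and 46.0 CPM in knockout lungs, against 39.7, 46.1 and 41.7 CPM in wild-type lungs (0.43 ± 0.16, edgeR adjusted p = 0.38). Only knockout 3 kept it from full separation, which lay next to wild type 2. Ect2, the exchange factor that centralspindlin recruits for cytokinesis, had 56.8, 37.5 and 34.4 CPM in knockout lungs, against 31.1, 37.1 and 37.9 CPM in wild-type lungs. Anln, the actin-binding protein of the contractile ring, had 85.5, 58.8 and 50.8 CPM in knockout lungs, against 54.2, 61.9 and 51.8 CPM in wild-type lungs. For Anln knockout 3 was the lowest of the 6 lungs. Tpx2, which activates Aurora A on the spindle, had 85.3, 52.9 and 51.2 CPM in knockout lungs, against 45.5, 54.3 and 46.9 CPM in wild-type lungs. Hmmr, a spindle-associated hyaluronan receptor, had 53.2, 29.4 and 26.6 CPM in knockout lungs, against 27.1, 28.1 and 26.4 CPM in wild-type lungs, the second narrowest wild-type group after Ttk in relative terms. Prc1 and Nusap1, which bundle or stabilise microtubules, had knockout 1 levels of 89.9 and 68.3 CPM, above wild-type means of 56.2 and 42.6 CPM.

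Both genes of the mitotic chromosome were the most abundant members. Mki67, the Ki-67 protein that coats mitotic chromosomes and serves as a proliferation marker, had 413, 306 and 283 CPM in knockout lungs, against 235, 300.3 and 251 CPM in wild-type lungs (0.35 ± 0.15, edgeR adjusted p = 0.49). Wild type 2 lay between knockouts 2 and 3. Top2a, the topoisomerase that untangles sister chromatids, had 292, 205 and 199 CPM in knockout lungs, against 177, 208 and 195 CPM in wild-type lungs (0.26 ± 0.15, edgeR adjusted p = 0.59). Per length, these genes also led the set: Mki67 averaged 112 ± 22.2 TPM in knockout and 85.9 ± 13.9 TPM in wild-type lungs, and Top2a 86.7 ± 18.3 TPM in knockout and 70.6 ± 7.58 TPM in wild-type lungs (TPM, the count scaled by exon length and library, SD, n = 3 each). Ccnb2, at 76.0 ± 21.3 TPM in knockout and 55.8 ± 4.15 TPM in wild-type lungs, and Ccna2, at 70.9 ± 18.3 TPM in knockout and 57.0 ± 8.11 TPM in wild-type lungs, came next and did not differ from each other beyond their spread. At the low end, Cdc25c had 5.78 ± 1.43 TPM in knockout and 4.05 ± 0.27 TPM in wild-type lungs. The median member stood at 20.0 TPM in wild-type lungs.

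Members with both promoter motifs were set beside those without. The median ratio of knockout 1 to the wild-type mean was 1.69 for the 11 genes with both motifs and 1.72 for the other 23 with a promoter, and this difference was not tested. Cdk1, Cdc20, Kif11, Mki67 and Top2a, whose promoters are printed above, had ratios of 1.77, 1.81, 1.73, 1.57 and 1.51. Bub3, with the smallest ratio, also held both motifs.

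Other cell cycle genes were read from 8 lists, in which edgeR called 1 gene. The 2 genes given with values from each list had its lowest unadjusted p in these same data. Separation of the genotypes in those genes is therefore partly built in by the choice. With the title number as a term it also called Lig1 (0.47, adjusted p = 0.030), Ncapd2 (0.49, adjusted p = 0.040), Tacc3 (0.57, adjusted p = 0.026) and Pkmyt1 (0.49, adjusted p = 0.031) higher. Among 28 DNA replication and S phase genes, 0 were called and 28 had a positive log2 fold change, with a median of 0.32. All knockout lungs lay above all wild-type lungs for 13 of these 28, beside 8.60% of all genes tested. An unadjusted p under 0.05 in edgeR was reached by 11, beside 4.71% of all genes that were higher at that level. Lig1, the ligase that joins Okazaki fragments, had 62.3, 49.4 and 45.9 CPM in knockout lungs, against 39.3, 38.6 and 40.0 CPM in wild-type lungs (0.42 ± 0.11, edgeR adjusted p = 0.17). Tk1, thymidine kinase, had 15.9, 14.2 and 11.8 CPM in knockout lungs, against 9.66, 9.89 and 10.8 CPM in wild-type lungs (0.47 ± 0.13, edgeR adjusted p = 0.20). For both genes knockouts 2 and 3 also exceeded every wild-type lung, and without knockout 1 their fold changes were 0.27 and 0.36 (edgeR adjusted p = 0.20 and 0.33). DESeq2 called Lig1 (adjusted p = 0.036). The median deviation of the 28 genes from the wild-type mean (log2) was 0.61, 0.19 and 0.08 in knockouts 1, 2 and 3, against −0.06, 0.03 and 0.05 in wild types 1, 2 and 3, so here too knockout 1 stood apart.

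Kinetochore and centromere genes outside the set (26) all had positive fold changes with a median of 0.28, and 0 were called. Cenpn, a reader of CENP-A nucleosomes, had 13.7, 10.7 and 10.5 CPM in knockout lungs, against 7.41, 9.02 and 8.46 CPM in wild-type lungs. Hjurp, the chaperone that deposits CENP-A, had 261, 266 and 244 CPM in knockout lungs, against 195, 232 and 208 CPM in wild-type lungs. For Hjurp knockout 2 was the highest library. The median deviation of these 26 genes was 0.63, 0.12 and 0.08 in knockouts 1, 2 and 3, against −0.05, 0.07 and −0.02 in wild types 1, 2 and 3. Of 22 other entry and exit regulators, 20 had a positive fold change with a median of 0.28 and 0 were called. Pkmyt1, an inhibitory kinase of CDK1, had 17.6, 15.5 and 15.4 CPM in knockout lungs, against 11.2, 11.9 and 11.9 CPM in wild-type lungs (0.47 ± 0.10, edgeR adjusted p = 0.11, DESeq2 adjusted p = 0.046), and without knockout 1 its fold change was 0.40 (edgeR adjusted p = 0.18). Cdca2, a chromatin-bound partner of a protein phosphatase, had 34.4, 24.4 and 20.8 CPM in knockout lungs, against 14.5, 19.2 and 20.2 CPM in wild-type lungs.

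Smaller shifts stood in the remaining lists. Condensin, cohesin and separase genes had a median of 0.17 with 15 of 17 positive and 0 called. Within this list Ncapd2, a condensin I subunit, had 108, 87.5 and 76.0 CPM in knockout lungs, against 63.2, 75.2 and 65.0 CPM in wild-type lungs. Pttg1, the separase inhibitor securin, had 18.8, 17.95 and 18.01 CPM in knockout lungs, against 23.1, 20.3 and 23.6 CPM in wild-type lungs, a difference in the other direction that did not pass (−0.29 ± 0.09, edgeR adjusted p = 0.26). Centrosome genes had a median of 0.19 with 11 of 11 positive and 0 called, and included Tacc3 at 49.7, 34.6 and 32.8 CPM in knockout and 26.6, 30.1 and 26.9 CPM in wild-type lungs. Cdk5rap2, a pericentriolar protein, had 60.5, 52.9 and 50.7 CPM in knockout lungs, against 42.1, 48.6 and 44.0 CPM in wild-type lungs. The 15 APC/C subunits, which are present through the cell cycle, had a median of 0.08 with 10 positive, 0 called and 0 at an unadjusted p under 0.05. Anapc7 had 57.1, 48.6 and 48.7 CPM in knockout and 45.8, 47.3 and 47.3 CPM in wild-type lungs, and Anapc5 had 288, 268 and 275 CPM in knockout and 260.2, 261 and 255 CPM in wild-type lungs.

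Genes of G1 control had a median of 0.09, with 12 of 17 positive and 0 called. Cdk2, the kinase of the G1/S transition, had 77.9, 70.0 and 74.6 CPM in knockout lungs, against 62.2, 64.7 and 62.3 CPM in wild-type lungs (0.23 ± 0.06, edgeR adjusted p = 0.20). Mybl2, encoding B-MYB, had 8.50, 8.36 and 7.89 CPM in knockout lungs, against 6.32, 5.45 and 7.15 CPM in wild-type lungs (0.39 ± 0.14, adjusted p = 0.34 in edgeR). For both genes, picked for the lowest p in this list, the 3 knockout lungs lay close together and above the wild-type lungs. In the whole list this held for 3 of 17 genes, beside 8.60% of all genes tested. Of 9 tested CDK inhibitor and p53 target genes, 1 was called lower and 0 higher, with a median of 0.03. Cdkn2b, encoding the CDK4/6 inhibitor p15, had 19.5, 21.4 and 21.4 CPM in knockout lungs, against 37.3, 29.1 and 33.2 CPM in wild-type lungs. It fell in knockout lungs by a log2 fold change of −0.68 ± 0.10 (edgeR adjusted p = 0.037, lower in 3 of 3 knockout lungs). The adjusted p was between 0.054 and 0.16, no longer under 0.05, when any 1 library was left out, with log2 fold changes of −0.77 to −0.59. Ccng1, a p53 target, had 82.8, 85.9 and 85.2 CPM in knockout lungs, against 101, 88.5 and 98.5 CPM in wild-type lungs (−0.18 ± 0.07, edgeR adjusted p = 0.34).

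**Figure D3:**
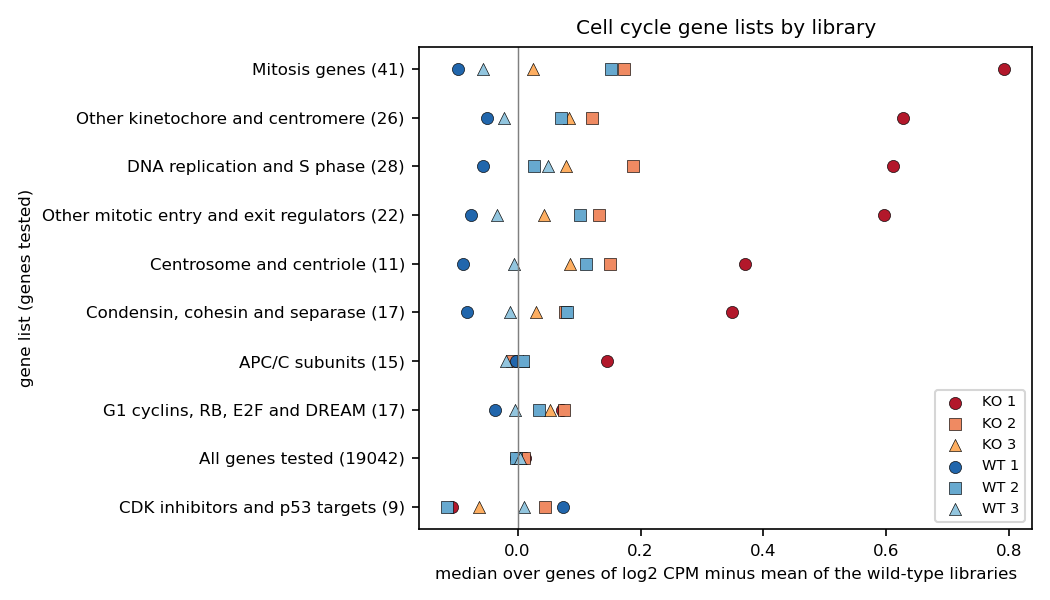
Median over the genes of each cell cycle list (number tested in parentheses) of log2 CPM minus the wild-type mean, for each knockout (KO) and wild-type (WT) library. KO 1 is far to the right for the mitosis genes (0.79) and for replication genes (0.61), and less so for condensin and cohesin genes (0.35). For APC/C subunits KO 1 (0.15) is a smaller step to the right of the other libraries (−0.02 to 0.01). For G1 genes KO 1 (0.07) is beside KO 2 (0.08).

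Summed levels of lung and blood cell type markers were not highest in knockout 1 for any list. Knockout 1 was the highest library for 5 of 61 single markers, beside 26.5% of all genes tested. Summed over 11 erythroid markers, the levels were 3163, 2715 and 4628 CPM in knockout lungs, against 3979, 3028 and 4485 CPM in wild-type lungs. Epithelial markers summed to 14322, 14176 and 16652 CPM in knockout and 16314, 14252 and 15922 CPM in wild-type lungs. Endothelial markers summed to 2053, 1951 and 2042 CPM in knockout and 2306, 2434 and 2044 CPM in wild-type lungs, and mesenchymal markers to 4585, 5901 and 4944 CPM in knockout and 6167, 5387 and 5379 CPM in wild-type lungs. Knockout 1 was the highest library in none of these 4 sums. Macrophage markers ran from 182 to 194 CPM in knockout and 194 to 212 CPM in wild-type lungs. Neutrophil markers were highest in knockout 2 at 51.5 CPM, with wild type 1 next at 40.6 CPM and knockout 1 at 25.9 CPM. Mesothelial markers ran from 257 to 337 CPM in knockout and 412 to 503 CPM in wild-type lungs, with knockout 1 the lowest. Liver markers ran from 6.95 to 58.5 CPM in knockout and 7.63 to 12.8 CPM in wild-type lungs, and knockout 1 was the lowest there too. Lymphocyte markers summed to under 8 CPM everywhere, and no defining marker in any list was at 0 in all libraries. Sums hide single markers: Sftpc makes up most of the epithelial sum. In knockout 1, the globin gene Hbb-bs alone gave 1413 of the 3163 CPM of the erythroid sum. Epcam, an epithelial adhesion protein, had 146, 126 and 118 CPM in knockout lungs, against 98.6, 94.5 and 108 CPM in wild-type lungs (0.37 ± 0.09, edgeR adjusted p = 0.13), with knockout 1 the highest. Tfrc, the transferrin receptor that dividing cells also carry, had 179.8, 131 and 153 CPM in knockout lungs, against 116, 146 and 123 CPM in wild-type lungs. Ager, a marker of alveolar type 1 cells, had 831, 765 and 876 CPM in knockout lungs, against 1182, 1032 and 1168 CPM in wild-type lungs (−0.45 ± 0.09, edgeR adjusted p = 0.074). The knockout lungs lay above the wild-type lungs for Epcam and below them for Ager, in the same list. edgeR called 0 genes of these 9 lists, while DESeq2 called 7 (Marco and Epcam higher, Krt8, Krt18, Ager, Cldn5 and Msln lower). Of all genes, DESeq2 called 0.326% higher and 1.54% lower. With the title number as a term, edgeR called 3 markers (Krt18, Ager and Msln lower), beside 2.54% of all genes called lower. These single markers were named after their values were seen. The sums are a description, and the part that cell type makeup plays in the level of the mitosis genes was not tested.

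**Figure D4:**
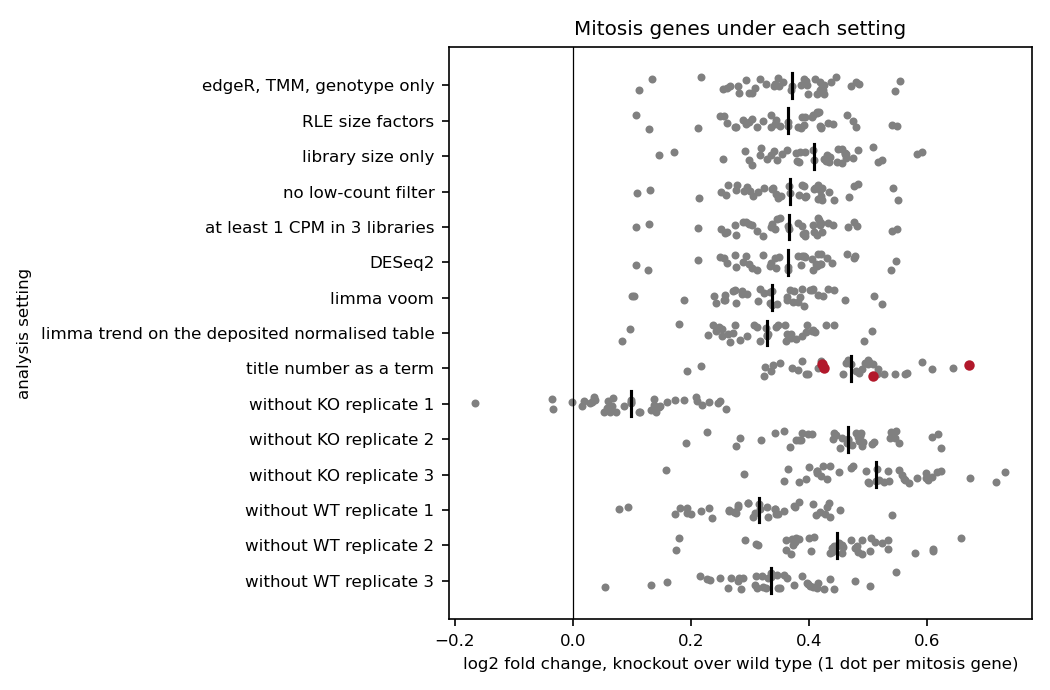
Log2 fold change (knockout over wild type) of each mitosis gene, 1 dot per gene, under each way of computing it. The black bar is the median, and red dots are genes called at the adjusted p threshold of 0.05. Dots straddle 0 only without KO replicate 1 (median 0.10), and red dots appear only with the title number as a term (4 genes).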

How the data were processed

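Whole-lung RNA in 6 libraries (3 knockout, 3 wild type by the genotype label) was analysed from 2 deposited tables. The first holds raw counts; per the file headers, featureCounts counted reverse-stranded reads (strand setting 2) whose mapping quality was 1 or more, over Ensembl release 98 genes. The submitters' processing notes name bcl2fastq 2.19.1, GSNAP, featureCounts 1.6.3, DESeq2 1.24.0 and mm10. The second deposited table holds a normalised signal, the counts after the authors' scaling by a size factor for each library. Undoing it with size factors taken from the count table, 99.97% of values lay within 0.1 of a whole read. After rounding, 100% of these reads equalled the count table, so the 70 genes that edgeR called on them only repeat the main result. ERCC rows (92, with 1 read in all) were left out. Genes with near-identical copies are uncertain.

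The main test was edgeR 4.0.16 (R 4.3.3) with TMM, filterByExpr (19042 of 34615 genes with a read kept), a robust quasi-likelihood fit on genotype, Benjamini-Hochberg adjustment over all genes and a threshold of 0.05, past which a gene is called. SE is the log2 fold change, without sign, over the root of F. Deviations used log2 CPM with a prior count of 2, and TPM the exon lengths of the count table. Alternatives were other scaling and filters, DESeq2 1.42.0, limma 3.58.1 (voom, and on log2 of the normalised signal plus 1), the title number as a term, and each library left out; the fit on recovered reads was added after seeing the data. The fit was tested on simulated data, where it missed most small changes and its share of false calls was above the threshold. Named genes were all members, Kmt2c, the 2 genes of lowest p in each of 8 pathway lists, and summed markers in 9 lists. Members, lists and tests were chosen with earlier results of these data known.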

Additional observations from a re-analysis of the deposited data

How the results depend on the processing

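The sign of the median log2 fold change of the mitosis genes was positive under every alternative, from 0.10 without knockout 1 to 0.51 without knockout 3. Of 615 values of single genes, 607 kept their sign and their side of the threshold. These include 41 values from the fit on recovered reads, which equal the counts, so those could not differ. Without knockout 1 the log2 fold changes of Ccnb1 (−0.0017), Bub3 (−0.034), Nuf2 (−0.16) and Anln (−0.035) were below 0, and the cause was not tested. With each library left out in turn, these genes ranged up to 0.47 (Ccnb1), 0.19 (Bub3), 0.29 (Nuf2) and 0.37 (Anln). With the title number as a term, edgeR called 4 mitosis genes, 625 genes in all (142 higher, 483 lower) and 8 genes of the other lists; the cause was not tested. Over all genes, 70 were called by the main test, 443 without a low-count filter, 356 by DESeq2 and 0 to 41 with 1 library left out. Leaving out wild type 2 or wild type 3 gave 0 calls in edgeR, with 1954 and 1629 genes at an unadjusted p under 0.05, while leaving out knockout 1, 2 or 3 or wild type 1 gave 41, 11, 27 and 3. Genes of the other lists called numbered 1 by the main test, 8 without a low-count filter, 10 by DESeq2 and 0 to 2 with 1 library left out. Scaling by library size alone moved the median of all genes to 0.04, against 0.01 with TMM, and that of the mitosis genes to 0.41. Each genotype had 3 lungs, and each mitosis gene at least 126 reads per library; the part of either in the number of calls was not tested.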
